A study of Mus musculus with 20 samples.

Results

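The genes described here are 33 genes of the integrated stress response and of the unfolded protein response of the endoplasmic reticulum (ER), chosen by name from 35975 genes for which counts were available. Of the 33, 32 had enough counts to be tested. Fgf21, a stress hormone, did not pass the filter on low counts. The genes were read in 20 libraries of polyadenylated RNA from ES-E14TG2a, a line of mouse embryonic stem cells. Wild-type (WT) cells and cells labelled TKO were sampled as stem cells at day 0 (D0), grown without feeders on gelatin in serum medium with leukemia inhibitory factor (LIF). They were sampled again during differentiation towards neural progenitor cells (NPC), at days 2, 4, 6 and 8 (D2 to D8), on laminin in N2B27 medium without serum. The 10 groups (WT and TKO at each of the 5 days) held 2 libraries each, which the labels call biological replicates. The labels do not say which genes TKO stands for, whether it is 1 clone, or whether the replicates were separate cultures, so that p-values measure the spread between these libraries.

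In the integrated stress response, kinases that sense amino acid shortage, haem shortage, viral RNA or unfolded ER proteins phosphorylate the translation factor eIF2. Most translation then slows, while the transcription factor ATF4 is made and switches on genes for amino acid synthesis, amino acid uptake and tRNA charging, together with inhibitors that end the response. The unfolded protein response adds ER sensors, among them IRE1, which splices the mRNA of XBP1, and ATF6. XBP1 and the released part of ATF6 raise the chaperones and folding enzymes of the ER.

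Totals per library ran from 26015282 to 38074768 estimated counts. Levels are CPM, counts per 1000000 counts of a library after scaling between libraries. A gene is called higher or lower where the p of edgeR's quasi-likelihood test, adjusted by Benjamini-Hochberg over all 18555 tested genes, was under 0.05. The labelled cell type, embryonic stem cells in every library, was set against markers. The summed level of 8 pluripotency genes was 6840 to 6920 CPM at WT D0 and 6320 to 6480 CPM at TKO D0, but 236 to 259 CPM at WT D8 and 1100 to 1160 CPM at TKO D8. In bulk RNA, fewer cells of a type and less RNA per cell cannot be told apart. The WT D0 libraries stood apart from each other, where the chi-square statistic divided by its degrees of freedom was 39.4, against 3.34 to 14.4 for the pairs of the other 9 groups. Counts or medians that use WT D0 are therefore given with and without either library. Leaving out a library loosens the filter on low counts, and Fgf21 is then tested in every case but that of WT D0 replicate 2, so that those counts are out of 33 genes.

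Measured per transcript length, ER chaperones led the set. Calr, a calcium-binding chaperone of glycoproteins, had a median of 650 TPM (the deposited level scaled for transcript length) over the 20 libraries, from 464 to 767. Hspa5 (BiP), the main ER chaperone, had a median of 435 TPM and Hsp90b1 (GRP94), another ER chaperone, of 415 TPM. Slc3a2 (an amino acid transporter chain), Psat1 (of serine synthesis) and 3 of the tRNA synthetases came next, with medians of 204 to 236 TPM, and then Atf4 at 191 TPM. Trib3, Chac1 and Nupr1 were far lower and wider in range. Trib3, a pseudokinase that binds ATF4, had a median of 8.91 TPM and ran from 0.707 to 75.1. Chac1, an enzyme that degrades glutathione, ran from 2.29 to 67.9 TPM, and Nupr1, a small stress-induced chromatin protein, from 0.193 to 89.9 TPM. Other feedback genes ranged less, with Sesn2 at 43.8 to 109 TPM (median 82.2) and Ppp1r15a at 17.8 to 75.1 TPM (median 34.4). Fgf21 reached 0.691 TPM at most. For 14 of the 33 genes, the library with the highest level of all 20 was WT D0 replicate 2, whereas the lowest was WT D6 replicate 1 for 12 and WT D0 replicate 1 for 10.

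**Figure D1:**
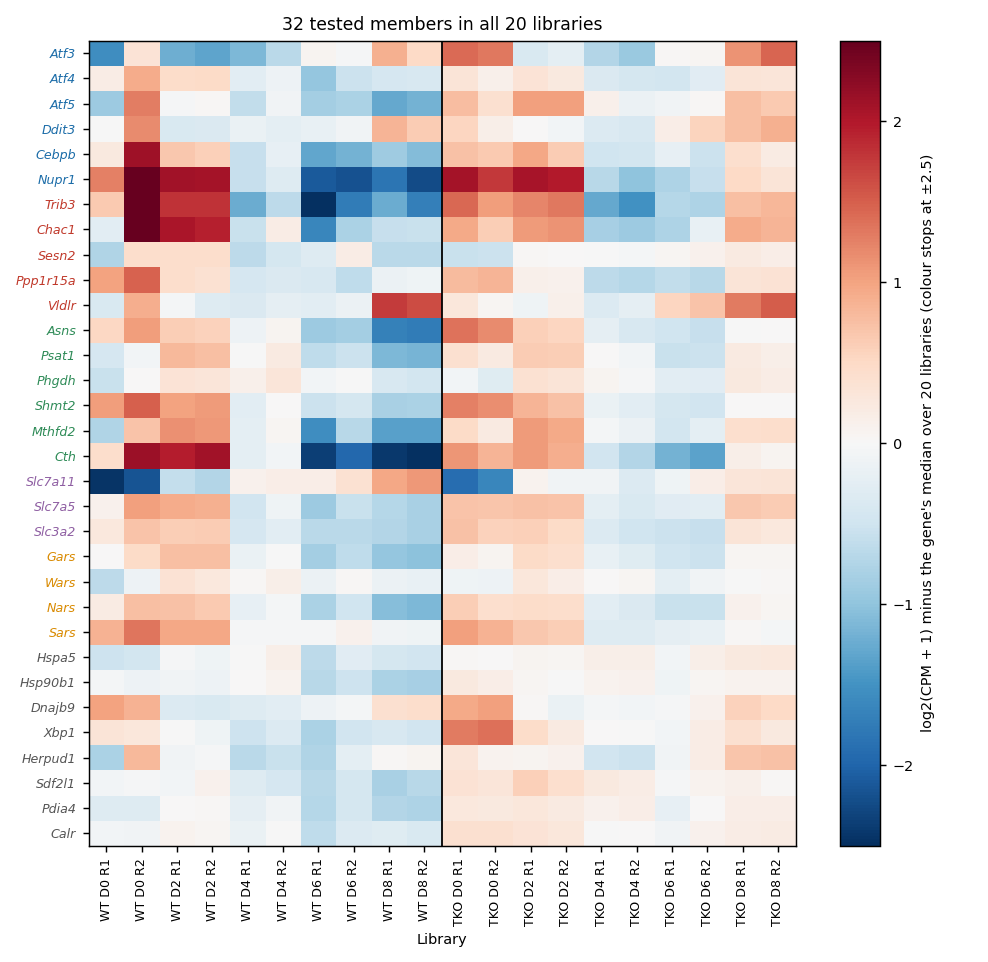
Levels of the 32 tested genes (rows, named in the colour of their role) in the 20 libraries (columns), as log2(CPM + 1) minus the gene's own median over the libraries. Replicate 2 of WT D0 stands above replicate 1 for the transcription factors and feedback genes. Among these, replicate 1 is above the median in Atf4, Cebpb, Nupr1, Trib3 and Ppp1r15a. The WT D6 and D8 columns are blue for most genes of amino acid metabolism.

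The difference between the WT D0 libraries was read first, because it reaches many of these genes, though not only these. Replicate 2 was over 1.5-fold above replicate 1 in 14 of the 32 tested genes, and the reverse was found in 0. Over the 11628 genes with a mean of at least 5 CPM, 3.78% were past 1.5-fold in either direction. Trib3 was at 15.8 CPM in replicate 1 and 93 CPM in replicate 2, a ratio of 5.89 (95% counting interval 5.35 to 6.49). Chac1 was at 6.67 and 72 CPM, a ratio of 10.8 (9.37 to 12.5). Both genes are known targets of ATF4, and both were several-fold apart. Among transcription factors, Atf3, a repressor induced by many stresses, went from 1.69 to 9.03 CPM, and Atf5, a bZIP factor close to ATF4, from 42.4 to 196 CPM. Atf4 itself, whose product is controlled mainly by translation, was at 229 and 386 CPM (ratio 1.69, 1.64 to 1.74). Ddit3 (CHOP), a factor linked to cell death under stress, was at 7.46 and 18.4 CPM. All 6 transcription factors had an interval above 1, as did all 6 feedback and effector genes, the 6 genes of amino acid synthesis and folate metabolism, the 3 transporters and the 4 aminoacyl-tRNA synthetases. By the same reading, 2 of 8 ER genes were above 1 and 2 below. Of genes outside the set, 8 of 8 p53 targets and 12 of 16 other cytosolic synthetases were above 1. The share over all genes was not counted.

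Most ER genes were at nearly the same level in both libraries. Their median ratio was 0.99, against 3.92 for the transcription factors, 4.24 for feedback and effector genes, 1.48 for amino acid synthesis, 1.37 for transporters and 1.42 for synthetases. Hspa5 was at 426 and 446 CPM (ratio 1.05), Xbp1, the transcription factor of the unfolded protein response, at 63.8 and 62.3 CPM (0.976), and Pdia4, a disulfide isomerase, at 142 and 141 CPM (0.994). Herpud1, which takes part in ER-associated degradation and is also an ATF4 target, was the ER gene that stood out, at 22.8 and 71 CPM (ratio 3.11). A list of 18 other ATF4 targets went the same way as the first 5 groups, with 11 of 18 over 1.5-fold higher in replicate 2 and 0 lower. Aldh1l2, a mitochondrial folate enzyme, was at 3.64 and 23 CPM, and Slc6a9, a glycine transporter, at 5.61 and 22.2 CPM. None of the 12 kinases, phosphatase regulators and ER sensors was past 1.5-fold. Fgf21 had 1 count in replicate 1 and 12 in replicate 2 (ratio 12.2, 1.81 to 522). Genes of hypoxia and glycolysis moved the other way, with 11 of 14 over 1.5-fold lower in replicate 2 and a summed level of 6810 CPM in replicate 1 and 3460 CPM in replicate 2. Their part in the difference between the libraries was not tested. No test between 2 single libraries was made, and the intervals cover counting error only.

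**Figure D2:**
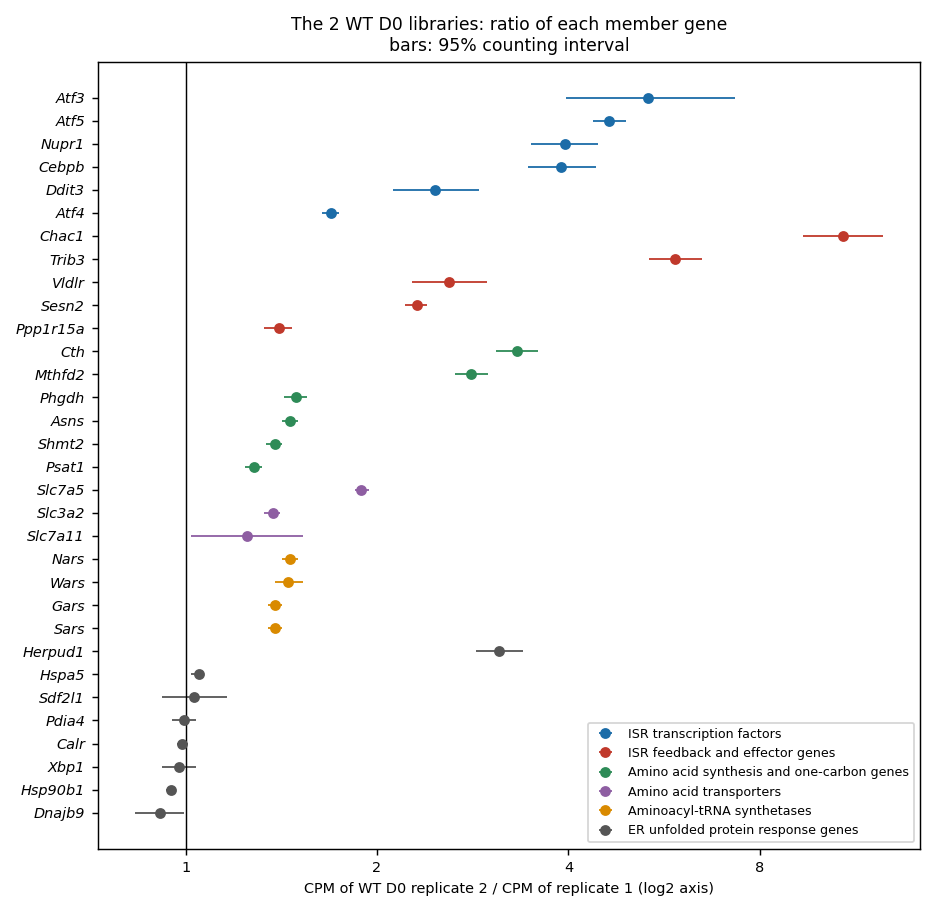
Ratio of the CPM of WT D0 replicate 2 to that of replicate 1 for the 32 tested genes, on a log2 axis, coloured by role, with 95% counting intervals as bars. Chac1 lies farthest to the right at 10.8, and the ER genes lie near the line of equal level except Herpud1 at 3.11. The intervals of Hspa5 (1.05), Hsp90b1 (0.949) and Dnajb9 (0.91) leave out 1.

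Promoters of these genes are shown because members of the first 5 groups moved together between the WT D0 libraries and ER chaperones did not. RefSeq (GRCm38.p6) gave a window from 250 bases before to 50 bases after the start for 29 of the 33 genes. The C/EBP-ATF response element, read by ATF4 together with a partner, was searched as TGATGNAAN on both strands. It was present in 10 of the 29 genes (34.5%), against 4.496% of all 27025 genes with a window. The ER stress response element, read by ATF6 with NF-Y, was searched on both strands as CCAAT and CCACG with 9 bases between them and found in 3 of 29 (10.3%), against 0.137% of all genes. The XBP1 element TGACGTGG was found in 0 of 29, against 0.714% of all genes, and its end overlaps in letters with the end of the ER stress response element read on the other strand. A match describes letters in the window and is not a site shown to be bound. The genes were chosen by name, known ATF4 targets among them. A share above that of all genes can therefore follow from the choice alone. The matches are in capitals in the sequences that follow, 5′ to 3′ on the strand of the gene, at chr2:119351018-119351086 (+), chr1:191183406-191183474 (-), chr7:126625563-126625591 (-), chr2:152344029-152344057 (-), chr8:94386286-94386354 (+), chr2:34772020-34772048 (+), chr10:86705608-86705686 (-) and chr8:84847045-84847123 (-).
Chac1: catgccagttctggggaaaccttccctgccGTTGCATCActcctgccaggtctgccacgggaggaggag
Atf3: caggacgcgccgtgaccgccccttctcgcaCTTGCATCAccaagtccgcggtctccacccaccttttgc
Nupr1: aaagggccagATTGCATCAgacagggctt
Trib3: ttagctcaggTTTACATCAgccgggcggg
Herpud1: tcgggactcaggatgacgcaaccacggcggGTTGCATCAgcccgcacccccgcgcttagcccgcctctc
Hspa5: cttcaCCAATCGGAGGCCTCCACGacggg
Hsp90b1: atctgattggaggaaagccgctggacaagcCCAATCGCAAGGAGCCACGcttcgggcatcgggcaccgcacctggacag
Calr: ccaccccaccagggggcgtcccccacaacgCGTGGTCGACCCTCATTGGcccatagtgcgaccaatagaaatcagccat

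The first 5 of these hold the C/EBP-ATF letters and the last 3 the ER stress response letters. The other C/EBP-ATF matches were in Slc7a11, Asns, Gars, Fgf21 and Vldlr. Herpud1, the ER gene with a high ratio between the WT D0 libraries, was the ER gene with these letters. Of the 10 genes with them, 7 were past 1.5-fold between the WT D0 libraries (median ratio 3.53), and of the 19 without, 6 were (median ratio 1.38). The 19 include every ER gene but Herpud1, so this comparison in part repeats the one between the groups. Slc7a11 (1.25), Asns (1.46) and Gars (1.38) hold the letters and were not past 1.5-fold. Atf5 (4.64), Cebpb (3.9), Mthfd2 (2.81), Ddit3 (2.47), Sesn2 (2.31) and Atf4 (1.69) were, without the letters in the window. Whether the letters play a part was not tested.

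Whether the TKO stem cells differed from WT before differentiation was read at D0. Of the 32 tested genes, 10 were higher in TKO and 1 lower, with a median log2 fold change of 0.04, while 19.4% of all tested genes were higher and 19.9% lower (39.3% in all, median 0.00). ER genes made up 6 of the 10. Xbp1 was at 63.8 and 62.3 CPM in WT against 127 and 133 CPM in TKO, with no overlap (log2 fold change 1.04, SE 0.103, edgeR adjusted p = 4.41e-07). Pdia4 was at 142 and 141 CPM in WT against 214 and 209 CPM in TKO (0.58, SE 0.0782, edgeR adjusted p = 1.42e-05). Hspa5 was at 426 and 446 CPM against 625 and 612 CPM (0.50, SE 0.091). In each of these the TKO libraries lay above both WT libraries. Calr, Sdf2l1, a partner of BiP, and Hsp90b1 were the other 3 ER genes that were higher (log2 fold changes 0.47, 0.39 and 0.30). Of 17 further genes of ER folding and degradation, 14 were higher and 0 lower (median 0.38). Among them Pdia5, another disulfide isomerase, had a log2 fold change of 1.04 and Sec61b, a subunit of the translocon, of 0.86. Summed endoderm markers moved the same way, at 122 and 163 CPM in WT and 1430 to 1620 CPM in TKO, with 10 of 10 genes higher. Lama1 held most of the endoderm counts in TKO (30823 and 33508 counts). Mesenchyme markers (16.2 to 18.4 against 77.7 to 81.5 CPM) and neuron markers (200 to 256 against 371 to 388 CPM) were higher too. So were p53 targets (533 to 646 against 723 to 738 CPM), whereas trophoblast markers were lower (146 to 158 against 34.3 to 34.6 CPM). The part of these lists in the ER result was not tested.

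The 6 ER calls at D0 were also made without either WT library. Of the 5 calls among the other members, those of Atf3 and Psat1 (0.56, and 0.38 and 0.74 without replicates 1 and 2) were too. Asns (0.46) and Slc7a11 (0.61) lost theirs without replicate 1 (0.21 and 0.44, edgeR adjusted p = 0.0771 and 0.0691). Without WT D0 replicate 1, 8 members were higher and 17 lower (median -0.34), Fgf21 among the lower. Without replicate 2, 22 were higher and 0 lower (median 0.54), and by either reading between 16.4% and 17.3% of all genes were higher and between 16.6% and 18.8% lower. Xbp1 was at 1.05 and 1.03 and Hspa5 at 0.46 and 0.54 in the same order. Of the 17 further ER genes, 13 were higher in each reading, with Pdia5 at 0.99 and 1.07 and Sec61b at 0.89 and 0.83. Trib3 was at 27.8 and 20.9 CPM in TKO, between the WT libraries at 15.8 and 93 CPM. Its log2 fold change was -1.16 with all libraries (SE 0.465, edgeR adjusted p = 0.0576), -1.94 without replicate 1 (edgeR adjusted p = 1.36e-06) and 0.62 without replicate 2 (edgeR adjusted p = 0.063). Chac1, at 16.7 and 13 CPM in TKO, gave -1.40, -2.29 and 1.15 in the same order. In both genes the sign was thus set by which WT library was used. The TKO libraries lay between the WT pair in 18 of the 33 genes, among them 5 of the 6 feedback and effector genes and 4 of the 6 transcription factors. Atf3 was the transcription factor that was higher at D0, at 1.69 and 9.03 CPM in WT against 20.1 and 18.6 CPM in TKO (1.85, SE 0.386, edgeR adjusted p = 0.000981). It remained higher without replicate 1 (1.09) and without replicate 2 (3.51). Ppp1r15a (GADD34), which returns eIF2 to its active form, was the lower gene, at 84.3 and 118 CPM in WT against 72.6 and 76.2 CPM in TKO (-0.44, SE 0.107). Without replicate 2 its call ended (-0.18, edgeR adjusted p = 0.0949).

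**Figure D3:**
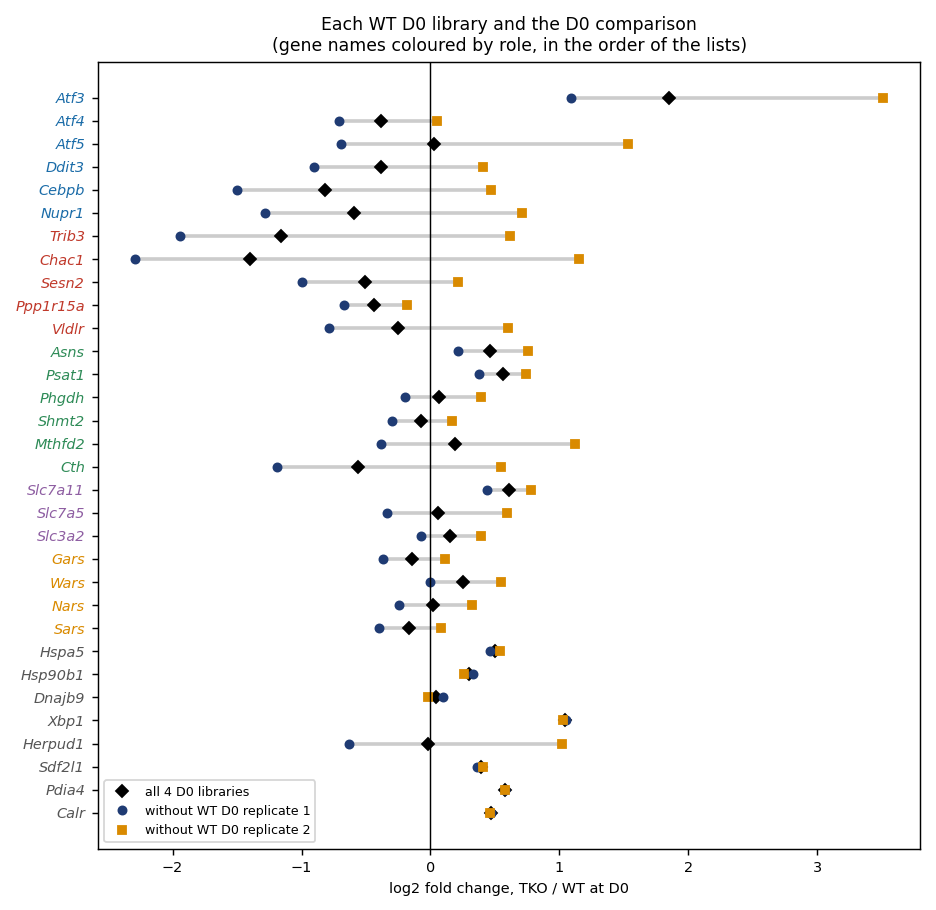
Log2 fold change of TKO against WT at D0 for the 32 tested genes with all 4 D0 libraries (diamonds), without WT D0 replicate 1 (circles) and without replicate 2 (squares). For Trib3 the 3 values are -1.16, -1.94 and 0.62, whereas for Xbp1 they are 1.04, 1.05 and 1.03.

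The move from serum and LIF into N2B27 was read as D2 against D0 within each genotype. In WT, 8 members rose and 6 fell (median -0.08), where 25.8% of all genes rose and 28.9% fell (54.7% in all, median -0.03). In TKO, 6 rose and 8 fell (median 0.01), beside 26.6% and 26.9% of all genes (53.6% in all, median 0.00). Slc7a11, which imports cystine in exchange for glutamate, went from 5.9 and 7.37 CPM to 24 and 21.5 CPM in WT and from 9.09 and 11.2 CPM to 38.7 and 34.5 CPM in TKO. Its log2 fold changes were 1.78 (SE 0.143) and 1.86 (SE 0.135), and both genotypes showed the rise without overlap of the days. Psat1, of serine synthesis, rose by 1.02 in WT and 0.31 in TKO. Dnajb9, an ER co-chaperone with 10.8% of its 31-base words shared with other genes, fell by 1.38 in WT and 1.09 in TKO. Xbp1 fell from 63.8 and 62.3 CPM to 50.3 and 46.7 CPM in WT (-0.38, SE 0.105) and from 127 and 133 CPM to 69.8 and 59.1 CPM in TKO (-1.01, SE 0.103). Without WT D0 replicate 1, 7 members rose and 16 fell in WT (21.9% and 26.4% of all genes). Without replicate 2, 18 rose and 3 fell (24% and 26.3%). In WT the values without replicates 1 and 2 were 1.60 and 1.94 for Slc7a11, 0.83 and 1.21 for Psat1, -1.33 and -1.45 for Dnajb9, and -0.38 and -0.40 for Xbp1, and all 4 genes passed in both.

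A test of the difference between these changes, the interaction of genotype with D2 against D0, passed for 4 members, all lower, and 0 higher, beside 9.7% of all genes higher and 8.74% lower (18.4% in all). At an unadjusted p under 0.05, 1 was higher and 6 lower, and DESeq2 called 0 and 5. The 4 genes were Psat1 (-0.71), Xbp1 (-0.63), Asns, the glutamine-dependent maker of asparagine (-0.49), and Pdia4 (-0.34). The median interaction over members was -0.16 with all libraries, 0.15 without WT D0 replicate 1 and -0.45 without replicate 2. The interaction for Xbp1 was -0.64 without replicate 1 and -0.61 without replicate 2. Psat1 also kept its call in both (-0.53 and -0.90). Asns lost its call without replicate 1 (-0.24, edgeR adjusted p = 0.161), and Pdia4 lost it without either (-0.33 in both, edgeR adjusted p = 0.0618 and 0.0701). Leaving out any 1 library of WT D2, WT D8, TKO D0, TKO D2, TKO D4 or TKO D8 left 2 lower.

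The genotypes were then compared at each later day. At D2, 7 members were higher in TKO and 4 lower (median -0.05), beside 18.4% and 16.9% of all genes (35.3% in all, median -0.00). At D4, 4 were higher and 2 lower (median -0.08), beside 15.1% and 13.2% (28.3% in all, median 0.00). The higher genes were again mostly of the ER, 5 of 7 at D2 and 4 of 4 at D4. Sdf2l1 was at 18.8 and 21.5 CPM in WT D2 and 30.4 and 26.9 CPM in TKO D2 (0.51, SE 0.0991), and at 15.7 and 14.6 CPM against 23.6 and 22.5 CPM at D4 (0.60, SE 0.1). Both TKO libraries lay above both WT libraries on each day. Xbp1 had log2 fold changes of 0.41 and 0.44 on these days and Pdia4 of 0.24 and 0.29. Cth, which makes cysteine from cystathionine, was lower in TKO at D2, at 85.5 and 94.4 CPM in WT against 45.3 and 40.9 CPM in TKO (-1.06, SE 0.311, edgeR adjusted p = 0.013). Slc7a11 was higher at D2 (24 and 21.5 against 38.7 and 34.5 CPM, 0.69) and lower at D4 (39.4 and 41 against 34.4 and 28.5 CPM, -0.35). Trib3 was at 36.3 CPM in both WT D2 libraries and 23.7 and 25.5 CPM in TKO, and it did not pass (-0.56, SE 0.469, edgeR adjusted p = 0.39). Its SE pools the spread within all 10 groups, WT D0 at 15.8 and 93 CPM among them. Not passing therefore does not show equal levels of Trib3 at D2. Atf5 was higher at D2 (78.6 and 82.1 against 164 CPM in each TKO library, 1.03, edgeR adjusted p = 0.0478). That call ended without any of the 20 libraries but the 2 of WT D0.

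These counts moved with single libraries. Median log2 fold changes without WT D0 replicates 1 and 2 were -0.08 and -0.05 at D2, and -0.07 and -0.08 at D4. Without either WT D0 library, which are not compared on these days but enter the low-count filter, the number of tests and the shared estimate of spread, 9 members were lower at D2 and 7 at D4. Without WT D2 replicate 1, 4 were higher and 1 lower at D2, and without TKO D2 replicate 1, 2 and 1. Without WT D4 replicate 1, 1 member was higher at D4, and without TKO D4 replicate 2, 2 were. Of the named genes, Cth lost its call at D2 without WT D2 replicate 2 (-0.98, edgeR adjusted p = 0.0755) and without either TKO D2 library.

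Markers of other cells moved on these days too. Summed endoderm markers were at 47.8 to 51.9 CPM in WT D2 and 589 to 779 CPM in TKO D2, with 9 of 10 higher, and at 179 CPM and 259 to 300 CPM at D4, with 7 of 10 higher. At D2, mesenchyme markers were at 9.14 to 9.93 CPM against 39.3 to 42.6 CPM (4 of 8 higher), neuron markers at 273 to 280 CPM against 413 to 452 CPM (6 of 8) and neural progenitor markers at 355 to 377 CPM against 466 to 502 CPM (6 of 8). At D4, p53 targets were at 1130 to 1170 CPM against 1860 to 1910 CPM, with 8 of 8 higher. Their part in the results at D2 and D4 was not tested.

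**Figure D4:**
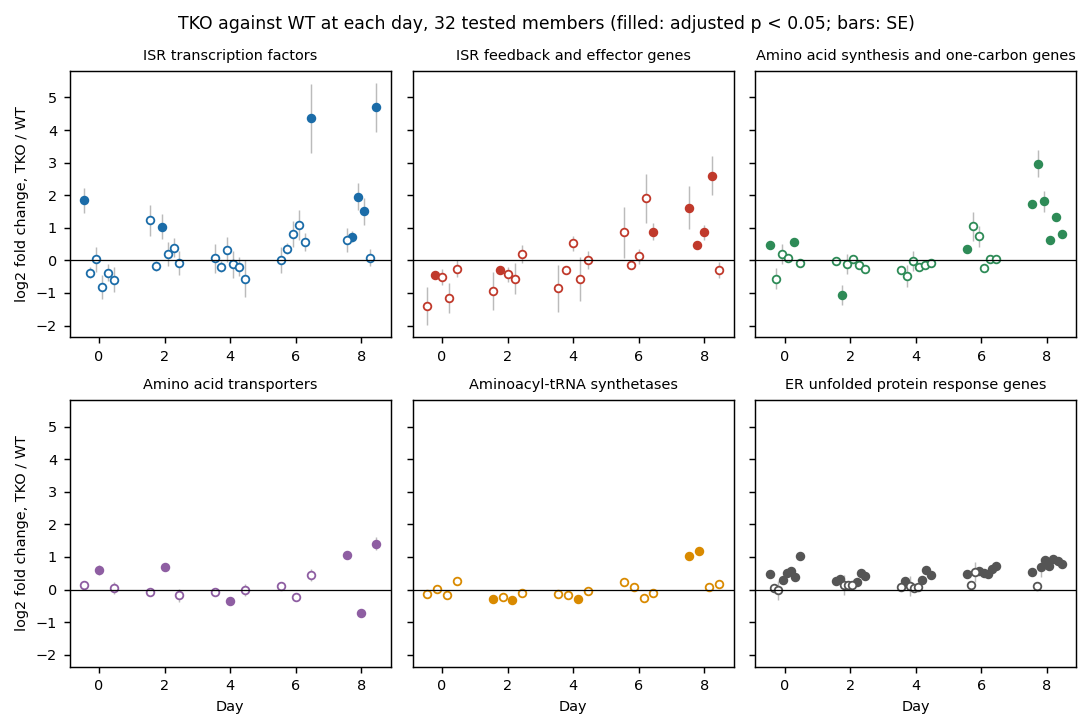
Log2 fold change of TKO against WT at each day for the 32 tested genes, 1 panel per role, with filled points where the edgeR adjusted p was under 0.05 and bars for the SE. ER genes are above 0 on most days. Genes of the other roles lie on both sides of 0 until D4, where the median of each of these roles is below 0. At D8 they lie mostly above 0.

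At D6, 9 members were higher in TKO and 0 lower (median 0.46), beside 20.9% and 20.3% of all genes (41.3% in all, median -0.00). Lower genes numbered 1 at an unadjusted p under 0.05 and 1 by DESeq2. The 9 were 6 ER genes together with Nupr1, Vldlr, a lipoprotein receptor induced by ATF4, and Asns. Hspa5 was at 388 and 505 CPM in WT against 585 and 675 CPM in TKO (0.50, SE 0.0909, edgeR adjusted p = 0.000284). Hsp90b1 was at 472 and 533 CPM against 705 and 792 CPM (0.57, SE 0.0647). The groups did not overlap in either gene. Nupr1 was almost absent from WT D6, at 0.121 and 0.0662 CPM, and was at 1.83 and 2.25 CPM in TKO (4.36, SE 1.05, edgeR adjusted p = 0.00299). Without either WT D0 library, 20 members were higher at D6 and 2 lower (21.2% and 22.2% of all genes without replicate 1, 21.5% and 21.7% without replicate 2). Vldlr, at 10.6 and 11.6 CPM in WT against 19.2 and 21.8 CPM in TKO (0.88), lost its call without WT D6 replicate 1 (edgeR adjusted p = 0.0835) or TKO D6 replicate 2 (0.0734). Summed markers moved at D6 as well, from 220 to 266 CPM in WT to 538 to 627 CPM in TKO for endoderm (8 of 10 higher) and from 157 to 166 CPM to 428 to 483 CPM for epithelium (8 of 8). Neuron markers were at 660 to 724 CPM against 1080 to 1380 CPM (7 of 8) and trophoblast markers at 5.94 to 6.29 CPM against 26.9 to 28.2 CPM (7 of 8). Their part in the D6 result was not tested.

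D8 was the day with the most members called. Of the 32 tested genes, 25 were higher in TKO and 1 lower, with a median log2 fold change of 0.88, beside 35.8% of all genes higher and 31.8% lower (67.5% in all, median 0.04). All 6 genes of amino acid synthesis and folate metabolism were higher, as were 4 of 6 transcription factors, 4 of 5 feedback and effector genes, 2 of 3 transporters, 2 of 4 synthetases and 7 of 8 ER genes. The median was 0.88 without WT D0 replicate 1 and 0.89 without replicate 2. Fgf21, tested without replicate 1, had a log2 fold change of 5.22 there.

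Nupr1 led the transcription factors at D8, with 0.37 and 0.03 CPM in WT against 5.84 and 5.02 CPM in TKO (log2 fold change 4.70, SE 0.752, edgeR adjusted p = 2.5e-05). Atf5 was at 32.6 and 34.8 CPM in WT against 136 and 127 CPM in TKO (1.96, SE 0.405, edgeR adjusted p = 0.000351). Atf4 was at 150 and 152 CPM against 252 and 249 CPM (0.73, SE 0.163, edgeR adjusted p = 0.00074). In all 3 the TKO libraries lay well above both WT libraries. Cebpb, a partner of ATF4 with 19.4% of its 31-base words shared with other genes, had a log2 fold change of 1.51. Ddit3 was alike in both, at 14.3 and 12.2 CPM in WT against 13.3 and 14.7 CPM in TKO, and did not pass (0.08, SE 0.257, edgeR adjusted p = 0.804). Atf3 did not pass either, at 13.6 and 10.1 CPM against 16.1 and 20.5 CPM (0.63, SE 0.358).

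Of the feedback and effector genes, Trib3 was at 3.47 and 2.25 CPM in WT D8 and 16.9 and 17.9 CPM in TKO D8 (2.60, SE 0.591, edgeR adjusted p = 0.000832). Chac1 was at 5.15 and 5.18 CPM against 16.3 and 15.6 CPM (1.62, SE 0.662, edgeR adjusted p = 0.0381). Libraries of the genotypes were clearly separate in both, though the Chac1 call ended without any 1 of the D8 libraries (edgeR adjusted p from 0.0838 to 0.119). Sesn2, a leucine sensor that restrains mTORC1, and Ppp1r15a were higher by 0.87 and 0.47. Vldlr was at 46.2 and 42.5 CPM in WT against 33.6 and 39 CPM in TKO and did not pass (-0.29, SE 0.238).

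Amino acid genes gave some of the largest values at D8. Cth was at 3.16 and 2.7 CPM in WT against 23.8 and 22.3 CPM in TKO (2.97, SE 0.423, edgeR adjusted p = 6.48e-06). Mthfd2, a mitochondrial folate enzyme, was at 31.4 and 31.3 CPM against 109 and 111 CPM (1.81, SE 0.316). Asns was at 64.6 and 61.7 CPM against 209 and 212 CPM (1.74, SE 0.125, edgeR adjusted p = 1.1e-09). In each of the 3, both TKO libraries lay far above both WT libraries. Psat1 had a log2 fold change of 1.34, Shmt2, which passes carbon from serine to folate, of 0.82, and Phgdh, the first enzyme of serine synthesis, of 0.64. Phgdh shares 55.5% of its 31-base words with other genes, so its share of reads is uncertain.

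The transporters split. Slc7a5, which imports leucine and other large amino acids, was at 168 and 156 CPM in WT against 438 and 427 CPM in TKO (1.41, SE 0.192, edgeR adjusted p = 3.7e-06). Slc3a2, the heavy chain that pairs with Slc7a5 and with Slc7a11, was at 133 and 127 CPM against 278 and 269 CPM (1.07, SE 0.104). Slc7a11 went the other way, at 72 and 78.6 CPM in WT against 45.3 and 46 CPM in TKO (-0.72, SE 0.115, edgeR adjusted p = 2.41e-05). It was the lower gene among the 32. Of the synthetases, Nars was at 134 and 129 CPM against 306 and 293 CPM (1.19, SE 0.127) and Gars at 176 and 168 CPM against 355 and 356 CPM (1.04, SE 0.107). Sars was at 172 and 171 CPM against 186 and 178 CPM and did not pass (0.09, SE 0.0995), nor did Wars (0.17). These genes charge asparagine, glycine, serine and tryptophan to their tRNAs. Of the 16 other cytosolic synthetases, 15 were higher and 0 lower (median 0.91). Of 18 other ATF4 targets, 12 were higher and 0 lower (median 0.90), led by Slc7a3, an arginine transporter (4.82), and Eif4ebp1, a brake on translation (2.65).

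In the ER group at D8, Pdia4 was at 106 and 103 CPM in WT against 198 and 200 CPM in TKO (0.93, SE 0.0788, edgeR adjusted p = 9.62e-09). Hsp90b1 was at 438 and 430 CPM against 806 and 809 CPM (0.90, SE 0.065). Hspa5 was at 452 and 440 CPM against 728 and 737 CPM (0.72, SE 0.0911), and Xbp1 at 38.1 and 36 CPM against 67.5 and 60.4 CPM (0.79, SE 0.106). None of these groups overlapped. Dnajb9 did not pass (0.12, SE 0.0823), and the call of Herpud1 (0.69, edgeR adjusted p = 0.0469) ended without either WT D8 library (0.136 and 0.114) or either TKO D8 library (0.103 and 0.12). The further ER genes gave 14 higher and 1 lower of 17 (median 0.65). Upstream of both arms, the 12 kinases, phosphatase regulators and sensors gave 5 higher and 4 lower (median 0.01). Eif2s1, the eIF2 subunit that is phosphorylated, had a log2 fold change of 1.12, whereas Eif2ak4 (GCN2), the kinase that senses uncharged tRNA, had -0.62 and Eif2ak3 (PERK), the ER kinase, did not pass (-0.05). The annotated transcripts do not tell spliced Xbp1 from unspliced Xbp1.

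Markers of several other cell types moved with the D8 result. Summed endoderm markers overlapped between the genotypes, at 360 to 539 CPM in WT and 448 to 672 CPM in TKO. Summed over 8 genes each, pluripotency genes were at 236 to 259 CPM in WT and 1100 to 1160 CPM in TKO, neuron genes at 3400 to 3430 CPM and 898 to 906 CPM, neural progenitor genes at 2570 to 2630 CPM and 1080 CPM, and epithelial genes at 293 to 295 CPM and 1130 to 1170 CPM. No marker of these 4 lists was at 0 in a D8 library. Sox2 held most of the WT D8 counts of the pluripotency list and went the other way. It had 6687 and 6301 counts in WT D8 and 4139 and 4321 in TKO D8. The other genes of that list had more counts in TKO D8 than in WT D8. Summed p53 targets were at 900 to 946 CPM in WT and 1240 to 1270 CPM in TKO, and hypoxia and glycolysis genes at 854 to 908 CPM and 2320 to 2360 CPM. Their part in the D8 result was not tested.

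The course from D2 to D8 was then read within each genotype, with the caution that these comparisons share their D8 libraries with the one above. In WT, 26 members fell and 5 rose (median -0.97), where 38.2% of all genes fell and 40.3% rose (78.6% in all, median 0.07). In TKO, 10 fell and 5 rose (median -0.18), where 28.5% fell and 32.7% rose (61.3% in all, median 0.05). Cth in WT went from 85.5 and 94.4 CPM at D2 to 3.16 and 2.7 CPM at D8 (log2 fold change -4.94, SE 0.409), and in TKO from 45.3 and 40.9 CPM to 23.8 and 22.3 CPM (-0.90, SE 0.327). Trib3 in WT went from 36.3 CPM in both libraries to 3.47 and 2.25 CPM (-3.66, SE 0.578), while in TKO it was at 23.7 and 25.5 CPM at D2 and 16.9 and 17.9 CPM at D8 and did not pass (-0.50, SE 0.485). Slc7a5 fell in WT (525 and 509 to 168 and 156 CPM, -1.67) and did not pass in TKO (457 and 454 against 438 and 427 CPM, -0.07). All 4 synthetases and all 16 others fell in WT, with medians of -1.41 and -1.47. In TKO, 3 of the 4 and all 16 others fell too, with medians of -0.39 and -0.45. The 5 that rose in WT were Atf3 (2.37), Vldlr (1.97), Slc7a11 (1.73), Ddit3 (1.25) and Dnajb9 (0.83). Atf3, for example, was at 2.4 and 2.18 CPM at D2 and 13.6 and 10.1 CPM at D8.

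The days between were not tested against each other. In TKO, Trib3 was at 3.4 and 2.74 CPM at D4, 5.48 and 5.19 CPM at D6 and 16.9 and 17.9 CPM at D8. Slc7a5 in TKO was at 232 and 212, 225 and 229, and then 438 and 427 CPM. Both were thus lower at D4 and D6 than at D2 or D8 in every TKO library. In WT, Trib3 was at 3.49 and 5.7 CPM at D4 and 0.757 and 2.15 CPM at D6.

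**Figure D5:**
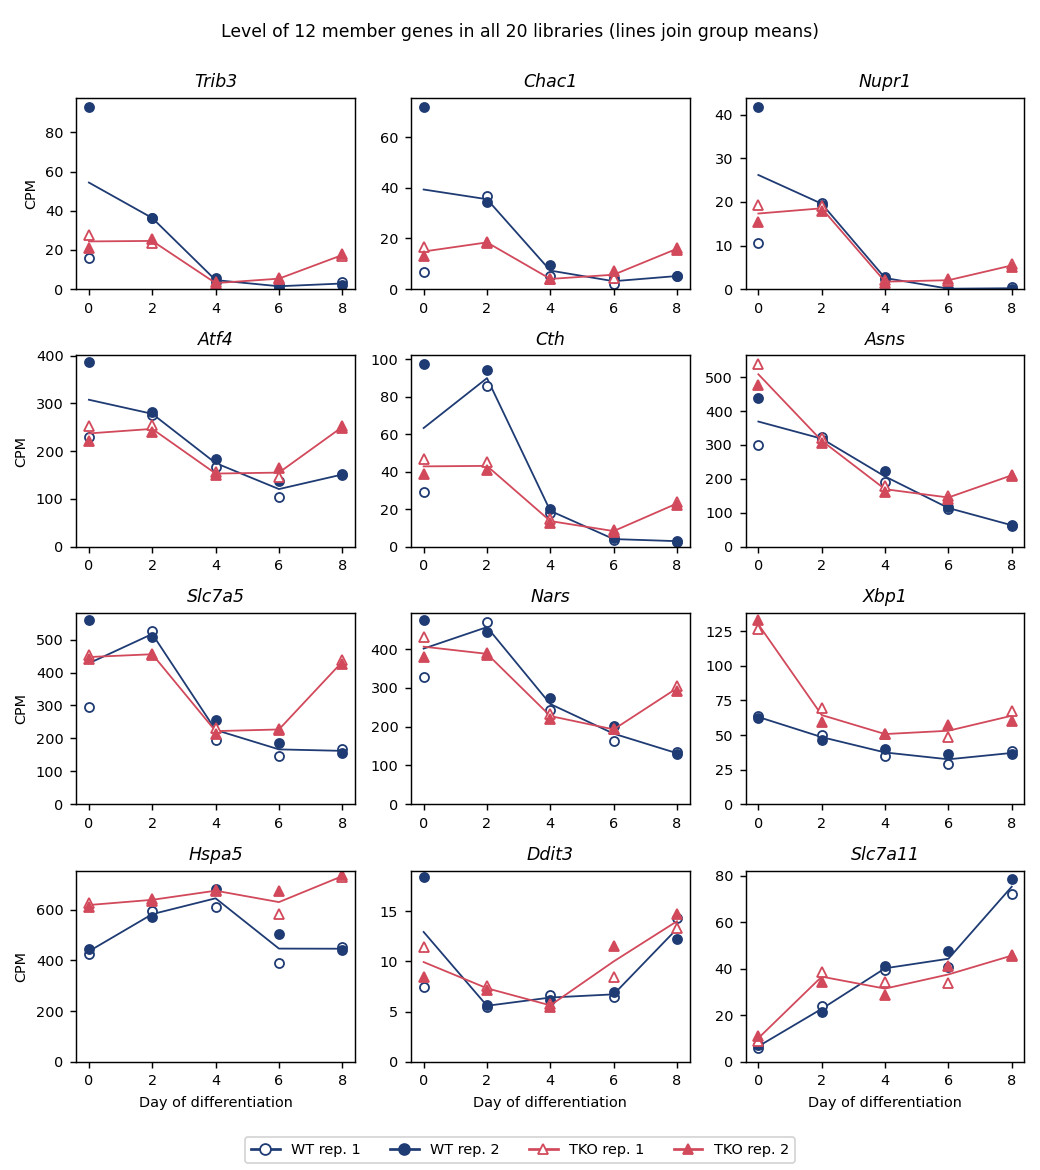
CPM of 12 genes by day, with open and filled symbols for replicates 1 and 2, circles for WT, triangles for TKO and lines through the group means. In TKO, Trib3, Atf4, Cth and Slc7a5 are higher at D8 than at D6, whereas in WT the means of Cth and Asns are lowest at D8, and replicate 2 of WT D0 stands alone in Trib3 and Chac1.

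The interaction of genotype with D8 against D2, which tests whether the D2 to D8 change differed between genotypes, was higher for 23 members and lower for 1 (median 0.84), beside 29.9% and 25.6% of all genes (55.4% in all, median 0.03). It was largest for Nupr1 (4.78, SE 0.875), Cth (4.04, SE 0.527) and Trib3 (3.16, SE 0.759, edgeR adjusted p = 0.00172). Slc7a11 was the lower gene (-1.41, SE 0.169). Ddit3, Atf3, Vldlr and Dnajb9, which rose in WT, had interactions of -0.32, -0.60, -0.50 and -0.21 and did not pass. The median interaction over members was 0.89 without WT D0 replicate 1 and 0.84 without replicate 2. A joint test of the interaction of genotype with all later days passed for 26 of the 32, beside 68.9% of all genes, and for 30 of 33 without WT D0 replicate 1 and 30 of 32 without replicate 2. The members that did not pass it were Ddit3, Dnajb9, Herpud1, Sars, Sdf2l1 and Wars. Sdf2l1, higher in TKO at all 5 days, had log2 fold changes of 0.39, 0.51, 0.60, 0.63 and 0.89 from D0 to D8. Xbp1 and Pdia4 were the other genes that were higher at all 5 days.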

How the data were processed

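Each of the 20 tables holds 119414 transcripts of 1 library. The authors deposited estimated counts, made by kallisto per the submitters' processing notes, which also name Trim Galore 0.6.2 and the GRCm38 build without their role. TPM values in the same tables were deposited by the authors and scale the counts for effective length and depth, per the file headers. Per the file headers, transcript lengths are also given, in bases.

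Transcripts were matched to GENCODE M21 (116728 of 119414), and the sum of a gene's estimated counts was rounded to a whole number. Of the counts of a library, 0.94% to 1.1% belonged to unmatched transcripts and were left out. All 20 libraries were fitted together in edgeR 4.0.16 (R 4.3.3; TMM scaling, filterByExpr on the 10 groups, quasi-likelihood F test) with 18555 genes and 10 residual degrees of freedom. SEs are the log2 fold change divided by the root of F. The test was checked on simulated counts with known changes. There all genes had the same spread and no pair of libraries stood apart, so the check does not cover a pair such as WT D0. With 2 libraries per group, precision is limited by their number. Uncertain genes are those with at least 10% of their 31-base words in other genes. Ddit3 has a second annotated model under the same symbol, and the one with the older identifier was used.

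The genes, their grouping by role, the other lists and the tests were chosen with earlier results of these data known, and a list's count is not independent support. Genes given with every library were Trib3, Atf4, Ddit3, Xbp1, Hspa5 and, per role, the 3 with the largest TKO against WT change among those that passed on any day with at least 5 CPM in a group. Other genes were named after their values were seen. Alternatives were scaling by relative log expression, keeping genes of low count, a block for the replicate number, the compared groups alone, DESeq2 1.42.0, length-scaled TPM counts and each library left out. Where a group kept 1 library, it was assumed to vary like the others.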

Additional observations from a re-analysis of the deposited data

Results flagged for a closer look

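The D2 to D8 change differed between genotypes by the interaction test of edgeR for 24 of the 32 tested genes. Of all tested genes, 55.4% passed (29.9% higher and 25.6% lower). DESeq2 called 20 members higher and 1 lower. Of the ER genes, it called 3 higher, against 6 by edgeR. The interaction, as the log2 change in TKO minus that in WT, was 4.78 for Nupr1 and 0.90 for Atf4 among transcription factors. It was 3.16 for Trib3, 2.57 for Chac1, 1.29 for Sesn2 and 0.77 for Ppp1r15a. In amino acid synthesis and folate metabolism it was 4.04 for Cth, 1.92 for Mthfd2, 1.77 for Asns, 1.49 for Psat1, 1.06 for Shmt2 and 0.61 for Phgdh. Slc7a5 (1.60) and Slc3a2 (1.15) differed from Slc7a11 (-1.41) in sign. The synthetases gave 1.42 for Nars, 1.34 for Gars and 0.41 for Sars. ER genes had smaller values, with 0.76 for Hsp90b1, 0.68 for Pdia4, 0.58 for Hspa5, 0.38 for Sdf2l1, 0.37 for Xbp1 and 0.28 for Calr. The calls of Chac1, Sars, Xbp1, Sdf2l1 and Calr each ended when single libraries were left out, for Chac1 without WT D8 replicate 1 (adjusted p = 0.0536 by edgeR), WT D8 replicate 2 (0.052) or TKO D2 replicate 1 (0.0535).

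The D0 to D2 change differed for Psat1 (-0.71), Xbp1 (-0.63), Asns (-0.49) and Pdia4 (-0.34), beside 18.4% of all tested genes. The calls of Asns and Pdia4 ended when WT D0 replicate 1 was left out, and that of Pdia4 also without replicate 2.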

How the results depend on the processing

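Of the days of TKO against WT, counts varied least at D8, with 25 members higher and 23 to 28 over the libraries left out in turn, and 1 lower (1 to 2). Over the same omissions, TKO against WT ranged from 8 to 22 higher and 0 to 17 lower at D0, 2 to 8 and 0 to 9 at D2, 1 to 5 and 0 to 7 at D4, and 7 to 20 and 0 to 2 at D6. WT D2 against D0 ranged from 7 to 18 and 3 to 16, TKO D2 against D0 from 2 to 8 and 6 to 9, WT D8 against D2 from 5 to 5 and 26 to 27, and TKO D8 against D2 from 4 to 7 and 7 to 15. The interaction with D2 against D0 ranged from 0 to 11 and 2 to 18, that with D8 against D2 from 19 to 28 and 1 to 2, and the joint test from 22 to 30.

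With no low-count filter, lower members numbered 10 at D0, 11 at D2, 11 at D4, 3 at D6 and 2 at D8, and higher ones 20 at D6. In the same setting 14 fell in WT from D0 to D2, 9 rose in TKO from D2 to D8, the interaction with D2 against D0 gave 7 and 9, and that with D8 against D2 gave 3 lower. There the prior degrees of freedom of the spread were estimated as infinite, against 7.06 with the filter, so that a gene's own spread between libraries no longer entered its test. With the compared groups alone, lower members numbered 0 at D0, 12 at D2, 6 at D4, 2 at D6 and 2 at D8, and higher ones 11 at D2 and 19 at D6. TKO D8 against D2 then gave 9 and 18, and the interaction with D8 against D2 gave 2 lower. Length-scaled counts gave 1 lower at D4 and 2 lower in the interaction with D2 against D0, and DESeq2 gave 1 lower at D6. The cause was not tested in these other settings.

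Among the alternatives tried, values called in the main fit or in the alternative turned in sign only without a WT D0 library. Of the values that follow, those of TKO against WT at D0 and of the interaction were not called in the main fit. In the order without replicate 1 and without replicate 2, TKO against WT at D0 was -0.69 and 1.53 for Atf5, -1.28 and 0.71 for Nupr1, -2.29 and 1.15 for Chac1, -0.79 and 0.60 for Vldlr, and -0.34 and 0.59 for Slc7a5. Without replicate 2 it was 0.55 for Cth and 1.02 for Herpud1. In the same order, WT D2 against D0 was -2.00 and 0.43 for Atf3, -1.31 and 0.92 for Atf5, -1.57 and 0.41 for Cebpb, -1.11 and 0.89 for Nupr1, -1.38 and 1.20 for Trib3, -1.04 and 2.41 for Chac1, and -0.90 and 0.76 for Herpud1. The interaction with D2 against D0 was 1.38 and -1.19 for Trib3, 1.34 and -2.10 for Chac1, 0.59 and -0.63 for Sesn2, and 0.77 and -0.88 for Herpud1.

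The replicate numbers were not used as pairs, since deviations of same-numbered libraries of the genotypes correlated at -0.16 to 0.23 across genes. With the replicate block, 10 members were higher and 1 lower at D0, 8 and 3 at D2, 4 and 2 at D4, 9 and 0 at D6, and 25 and 1 at D8.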
